A study of Mus musculus with 36 samples.

Results

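The IL-1 cytokines and the inflammasome genes were examined as 9 named genes: Il1a, Il1b, Il1rn, Il18, Nlrp3, Pycard, Casp1, Casp4 and Gsdmd. They were chosen by name from the IL-1 and inflammasome pathway, with earlier results of these data known. All 9 were listed among the 15385 genes of the microglial table and the 14551 genes of the astrocyte table, which together held 16690 gene symbols. Primary glia from C57BL/6 pups aged 2 to 4 days were grown as mixed cultures from pooled brains for 12 days. Microglia were then selected by CD11b, and astrocytes were selected from the remaining fraction. RNA was collected after 4 h of treatment. Treatment names follow the study: T was TNF, 5z was the TAK1 inhibitor 5z-7, S was a Smac mimetic, Z was the pan-caspase inhibitor zVAD and N was Nec-1s, which inhibits the RIPK1 kinase. T/5z was used to trigger RIPK1-dependent apoptosis and T/S/Z to trigger necroptosis. Microglia received the vehicle DMSO, Nec-1s alone, or either stimulus without or with Nec-1s (T/5z, T/5z/N, T/S/Z and, last, T/S/Z/N), 4 libraries each. Astrocytes received DMSO, Nec-1s alone, T/S/Z and the same with Nec-1s, 3 libraries each. No group received TNF alone, so each stimulus was a mixture. All cells were of the same strain with no allele named in the labels, and they were neonatal cells kept in culture.

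IL-1α and IL-1β act through the same receptor, and the antagonist encoded by Il1rn occupies that receptor without signaling. IL-1β and IL-18 are made as inactive precursors, which caspase-1 cuts once a sensor such as NLRP3 and the adaptor ASC (encoded by Pycard) have assembled an inflammasome. Mouse caspase-11, encoded by Casp4, senses intracellular lipopolysaccharide, and both caspases cleave gasdermin D, which then opens pores in the membrane. Microglia are a major source of IL-1 in the brain. The data are RNA levels and do not show whether an inflammasome formed or cytokine was released.

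On the mouse build GRCm38, Il1a (chr2:129299610-129309972) and Il1b (chr2:129364570-129371139) lie on the minus strand of chromosome 2 and Il1rn (chr2:24336853-24351494) on its plus strand. Casp1 (chr9:5298517-5307265), Casp4 (chr9:5308828-5336783 in the astrocyte annotation) and Il18 (chr9:50554827-50581840) lie on the plus strand of chromosome 9. Nlrp3 lies at chr11:59541568-59566956 (plus), Pycard at chr7:127989708-127993867 (minus) and Gsdmd at chr15:75862327-75867408 (plus). The deposited annotation marked Il1a, Il1b, Il18 and Pycard as confounded in both tables. In GENCODE M21 each of these 4 overlaps genes on the opposite strand, which are Gm14023 for Il1a, Il1bos for Il1b, Bco2 and Tex12 for Il18, and Gm45205 for Pycard. The astrocyte libraries were strand-specific and the microglial libraries were not described as such. If the microglial libraries were not strand-specific, reads of these partners could not be told apart there from reads of the genes themselves. Of the partners only Bco2 was listed, at a mean log2 level of 0.71 in microglia with T/S/Z, beside 3.35 for Il18.

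RefSeq promoter sequences (GRCm38.p6) are shown for the 6 genes that were called higher with T/S/Z in astrocytes, 5 of which were also called higher in microglia, so that the letters before their starts can be read beside their values. Each line gives the 250 bases before the most upstream RefSeq start, 5′ to 3′ on the strand of the gene. Capitals mark matches on either strand to AP-1 (TGANTCA) or to the NF-kB consensus.
Il1a, chr2:129309973-129310222 (minus): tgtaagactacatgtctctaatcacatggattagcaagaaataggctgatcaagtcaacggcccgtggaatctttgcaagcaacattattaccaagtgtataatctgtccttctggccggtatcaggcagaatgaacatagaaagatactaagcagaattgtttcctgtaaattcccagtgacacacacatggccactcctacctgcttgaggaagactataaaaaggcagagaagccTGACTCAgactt
Il1b, chr2:129371140-129371389 (minus): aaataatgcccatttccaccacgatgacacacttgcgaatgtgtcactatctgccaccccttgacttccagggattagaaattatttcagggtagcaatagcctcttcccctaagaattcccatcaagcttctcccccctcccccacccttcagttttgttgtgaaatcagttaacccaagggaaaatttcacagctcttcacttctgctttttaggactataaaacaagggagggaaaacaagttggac
Il1rn, chr2:24336610-24336859 (plus): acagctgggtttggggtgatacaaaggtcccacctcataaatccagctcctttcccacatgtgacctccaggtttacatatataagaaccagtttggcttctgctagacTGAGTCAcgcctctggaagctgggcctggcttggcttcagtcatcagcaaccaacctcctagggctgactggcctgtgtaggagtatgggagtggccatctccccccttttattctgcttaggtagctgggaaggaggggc
Nlrp3, chr11:59541319-59541568 (plus): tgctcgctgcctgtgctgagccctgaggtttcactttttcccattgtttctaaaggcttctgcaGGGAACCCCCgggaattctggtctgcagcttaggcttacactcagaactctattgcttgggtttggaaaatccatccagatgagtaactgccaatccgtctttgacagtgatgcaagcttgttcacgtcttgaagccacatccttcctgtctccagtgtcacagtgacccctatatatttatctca
Casp1, chr9:5298267-5298516 (plus): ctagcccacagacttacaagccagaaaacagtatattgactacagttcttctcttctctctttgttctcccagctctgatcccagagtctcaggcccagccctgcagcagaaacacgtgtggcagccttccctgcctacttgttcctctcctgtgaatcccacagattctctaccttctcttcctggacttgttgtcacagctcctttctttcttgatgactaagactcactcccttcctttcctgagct
Casp4, chr9:5308599-5308848 (plus): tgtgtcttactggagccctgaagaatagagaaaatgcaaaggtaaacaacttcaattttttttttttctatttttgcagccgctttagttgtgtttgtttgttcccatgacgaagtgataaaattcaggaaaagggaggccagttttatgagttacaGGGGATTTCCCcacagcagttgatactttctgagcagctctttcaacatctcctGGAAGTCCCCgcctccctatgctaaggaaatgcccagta

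The Casp4 window held overlapping NF-kB consensus matches starting 93 and 92 bases before the start and another match on the opposite strand 39 bases before it. The Nlrp3 window held an NF-kB consensus match, readable on both strands, that began 186 bases before the start. The Il1a window held an AP-1 match beginning 12 bases before the start, and the Il1rn window held one beginning 141 bases before it. The printed windows of Il1b and Casp1 held none of these letters. Of 32817 RefSeq windows of the same length, 7.25% held the NF-kB consensus and 6.75% held AP-1. The CRE (TGACGTCA) and C/EBP (TTGCNNAA) letters and the core of the interferon-stimulated response element were in none of the 6 windows and in 1.55%, 9.57% and 2.97% of all windows. Il1rn has 3 RefSeq starts and Nlrp3 and Casp4 have 2 each. The windows of the later Il1rn and Nlrp3 starts held none of the letters, and the second Casp4 window held the same NF-kB matches. Pycard had a C/EBP match, Il18 had none, and Gsdmd was not matched. These are letter matches, and which start was in use was not measured.

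Levels were deposited as log2(FPKM + 1), FPKM being fragments per exon length and library size, and values below are on this scale unless FPKM is named. Of the 10524 microglial and 13842 astrocyte genes tested, the median log2 change lay between -0.11 and 0.06 in every comparison. A gene was called changed at an adjusted p under 0.05 and a fold change over 1.5. All 9 genes passed the filter on low values in both tables (a log2 value of at least 1 in at least 4 microglial or 3 astrocyte libraries). Il1a passed in microglia only through TNF-treated libraries, as did Il1a, Il1b and Nlrp3 in astrocytes, so these genes had to differ between groups to be tested. Counts of called genes that include them are therefore given as description, not as support. Total read counts were not given. From the spacing of low values, an equivalent of 18.2 to 25.3 M fragments was estimated for the microglial libraries of replicate 4 and 21.3 to 22.6 M for the astrocyte libraries. The study describes its replicates in general as cells from separate litters, and the labels do not say what a replicate number marks, so p-values measure the spread between these libraries. The mean of every gene over the 6 microglial treatments was the same in all 4 replicates, to within 6.67e-05, so a replicate that is high in 1 treatment must be low in another. The SDs and the overlaps of groups given for microglia rest on these values, which hold no differences between replicate means. All 17 microglial markers were listed in microglia with summed levels of 17261 to 21548 FPKM, and all 9 astrocyte markers in astrocytes with 2924 to 3404 FPKM. The comparisons with DMSO share the same DMSO libraries, so their values are given side by side only. In bulk RNA, a change in the share of a cell type cannot be told apart from a change in RNA per cell.

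The first question was how the stimuli changed each gene in microglia. Il1a, almost silent at rest, was raised far more by T/S/Z than by T/5z. Its log2 values were -0.30, 0.22, 0.55 and 0.34 with DMSO, 2.90, 2.42, 1.60 and 1.67 with T/5z, and 5.75, 5.79, 5.69 and 6.41 with T/S/Z. The 3 groups did not overlap. The DMSO mean was 0.224 FPKM ± 0.195 (SD, n = 4), with the negative value taken as 0 FPKM. The increase was 1.95 ± 0.33 (SE) with T/5z (adjusted p = 0.00175) and 5.71 ± 0.15 with T/S/Z (adjusted p = 1.34e-07). With the variance of each gene estimated alone, the T/5z calls of Il1a (adjusted p = 0.0517) and Il1b, described next (adjusted p = 0.0668), were lost. Because 1 is added before the log, the change of so low a gene is understated.

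Il1b was already abundant at rest. Its values were 4.67, 4.76, 5.79 and 5.35 with DMSO, 7.07, 6.82, 6.36 and 6.37 with T/5z, and 8.19, 8.42, 8.33 and 8.79 with T/S/Z. Every stimulated library lay above every DMSO library, and T/S/Z lay above T/5z. The mean of 36.1 FPKM ± 13.9 (SD) with DMSO compared with 102 ± 25.3 for T/5z libraries and 349 ± 65.8 for T/S/Z libraries. The log2 increases were 1.51 ± 0.29 (adjusted p = 0.00297) and 3.29 ± 0.16 (adjusted p = 1.89e-06).

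Il1rn, the antagonist, rose together with the agonists. The values were 2.74, 2.94, 3.11 and 2.89 with DMSO, 4.82, 4.73, 4.65 and 4.48 with T/5z, and 7.56, 7.49, 8.25 and 8.80 with T/S/Z. In T/S/Z the libraries of replicates 3 and 4 were higher than those of replicates 1 and 2. The increase was 1.75 ± 0.093 with T/5z (adjusted p = 7.22e-06) and 5.10 ± 0.19 with T/S/Z (adjusted p = 5.19e-07). Levels per length allow the antagonist to be set beside its competitor: the median ratio of Il1rn to Il1b in FPKM was 0.197 with DMSO (0.141 to 0.255), 0.244 with T/5z (0.204 to 0.297) and 0.794 with T/S/Z (0.524 to 1). The ratios with T/S/Z lay above all ratios with DMSO and T/5z.

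Il18, the other caspase-1 substrate, was called with neither stimulus. It ranged from 2.88 to 3.10 with DMSO, from 2.99 to 3.55 with T/5z and from 3.26 to 3.47 with T/S/Z. All 4 T/S/Z libraries were above all DMSO libraries, yet the difference of 0.31 ± 0.073 (adjusted p = 0.00596) was under 1.5-fold. With T/5z the groups overlapped and the difference was 0.17 ± 0.1 (adjusted p = 0.184).

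Nlrp3, the sensor, was the member that rose most with T/5z. Its values were 3.35, 3.55, 3.45 and 3.43 with DMSO, 7.73, 7.65, 7.56 and 7.59 with T/5z, and 7.94, 8.06, 8.12 and 7.98 with T/S/Z. The replicates of each group lay close together and no groups overlapped. The mean went from 9.91 FPKM ± 0.607 to 198 ± 10.3 and 259 ± 14.9. The increases were 4.19 ± 0.059 with T/5z (adjusted p = 1.72e-07) and 4.58 ± 0.051 with T/S/Z (adjusted p = 8.74e-09).

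Pycard, which encodes the adaptor, was the only member to fall. The values were 3.35, 3.37, 3.43 and 3.43 with DMSO, 2.65, 2.71, 2.92 and 2.93 with T/5z, and 2.68, 2.63, 2.30 and 2.59 with T/S/Z. All stimulated libraries were below all DMSO libraries. It fell by 0.59 with T/5z (SE 0.063, adjusted p = 0.000182) and by 0.84 with T/S/Z (SE 0.087, adjusted p = 7.63e-05). The T/5z value was just past the 1.5-fold limit. It was -0.55 without replicate 1, -0.57 without replicate 2 and -0.52 with each library centred on its median, all short of that limit.

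Casp4, Casp1 and Gsdmd rose with T/5z, and only Casp4 of the 3 was also called with T/S/Z. Casp4 was 3.47, 3.71, 3.68 and 3.53 with DMSO, 5.78, 5.78, 5.73 and 5.80 with T/5z, and 5.23, 5.33, 5.23 and 5.36 with T/S/Z, without overlap. It rose by 2.18 ± 0.062 with T/5z (adjusted p = 6.7e-07) and 1.69 ± 0.065 with T/S/Z (adjusted p = 5.78e-07). Casp1 was 5.25, 5.16, 5.44 and 5.17 with DMSO and 6.06, 5.95, 6.13 and 6.11 with T/5z, a rise of 0.80 ± 0.054 (adjusted p = 2e-05). Casp1 was 5.62, 5.69, 5.41 and 5.58 with T/S/Z, and the difference from DMSO was 0.32 ± 0.09 (adjusted p = 0.0138), under 1.5-fold. Gsdmd was 5.36, 5.32, 5.28 and 5.21 with DMSO and 5.85, 5.83, 6.05 and 6.01 with T/5z, a rise of 0.64 ± 0.068 (adjusted p = 0.000182). Gsdmd ranged from 5.64 to 5.80 with T/S/Z, above all DMSO libraries, with a difference of 0.44 ± 0.059 (adjusted p = 0.000307) that was under 1.5-fold.

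**Figure D1:**
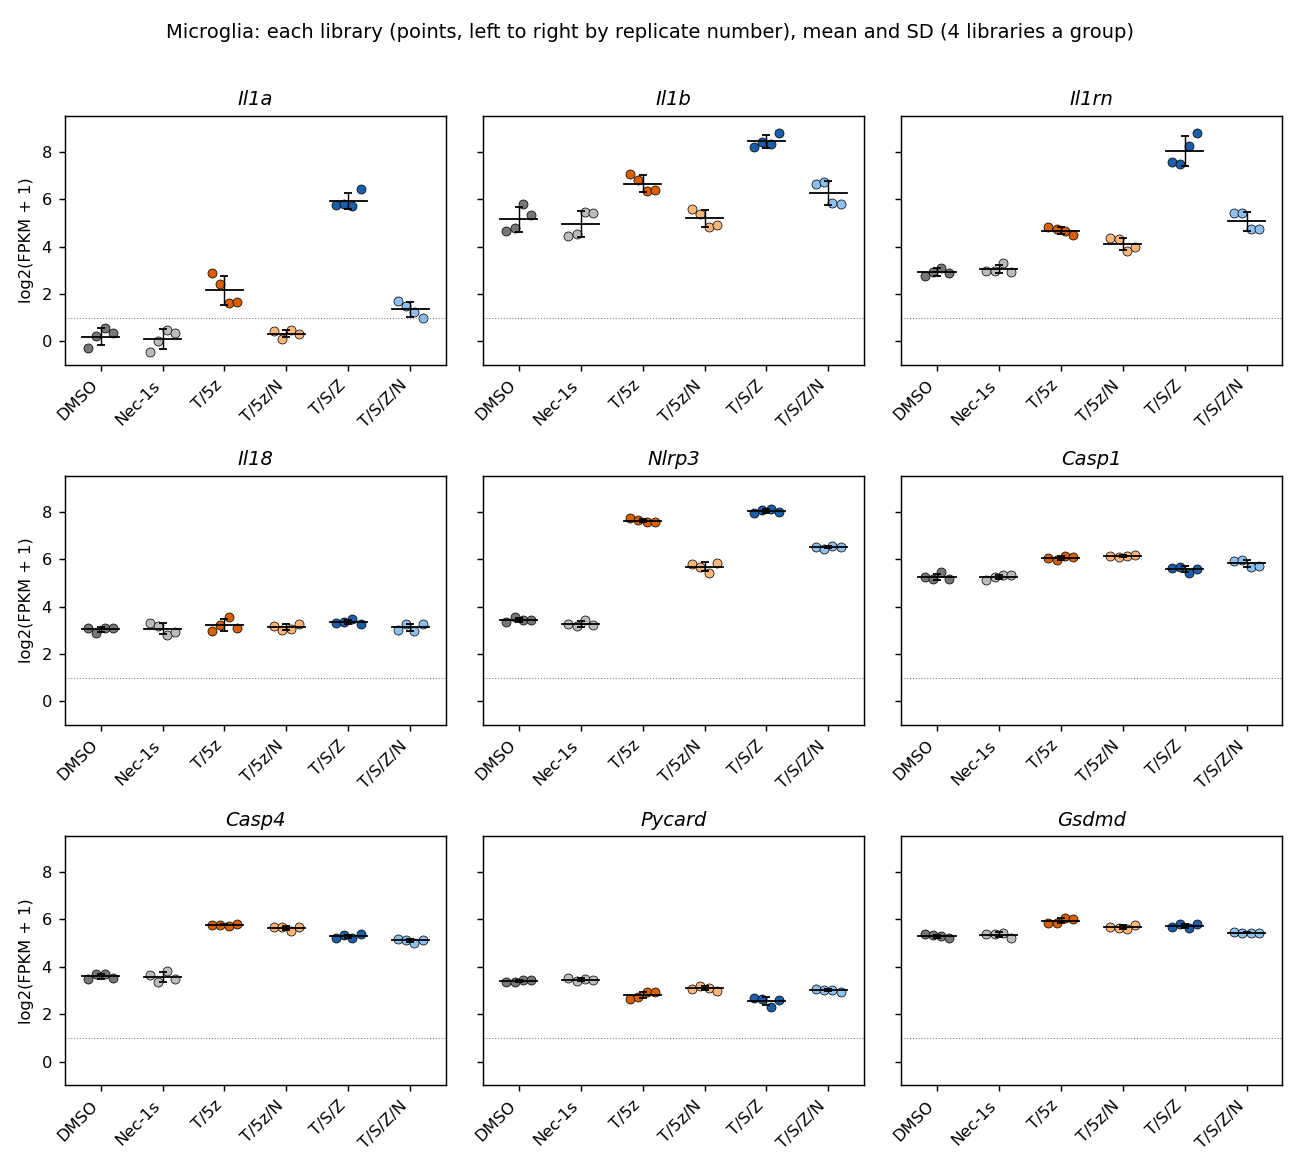
Log2(FPKM + 1) of the 9 genes in each of 24 microglial libraries (vertical axis) by treatment (horizontal axis), with the mean (bar) and SD (whiskers) of 4 libraries and a dotted line at the filter value of 1. Il1a, Il1b and Il1rn are highest with T/S/Z, Nlrp3 is near 8 with both stimuli, and Il18 stays between 2.80 and 3.55 throughout.

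In all, 7 of the 9 genes were called higher and 1 lower with T/5z, against 24.4% of all tested genes called in either direction (11.1% higher, 13.3% lower). With libraries centred on their median the count was 7 higher and 0 lower, and with quantile normalization 6 higher and 0 lower, as Pycard and then also Gsdmd (0.54) fell short of 1.5-fold. In the T/S/Z comparison 5 were called higher and 1 lower, against 29.6% of all tested genes (12.2% higher, 17.5% lower). The 9 genes had a median log2 change of 1.51 in the T/5z comparison (-0.06 over all tested genes) and of 1.69 in the T/S/Z comparison (-0.08 over all). Casp1 and Gsdmd made the difference between the counts, and neither differed from DMSO in the opposite direction with T/S/Z. Astrocyte markers summed to 7.17 to 9.14 FPKM in the microglial DMSO libraries, 12.1 to 22.2 with T/5z and 13.7 to 19.9 with T/S/Z. That is far below their 2924 to 3404 FPKM in astrocytes, and their part in these results was not tested. Among the other fixed marker lists, the 2 listed endothelial markers stayed under 7 FPKM in sum, the 3 fibroblast markers under 10, and the 6 oligodendrocyte-lineage markers between 18.9 and 27.8. The 3 listed neutrophil markers varied between libraries of the same treatment, from 0.0515 to 17.3 FPKM with DMSO and from 0.0623 to 13.2 with T/S/Z.

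The direct comparison of the stimuli in microglia asked which genes depended on the kind of stimulus. T/S/Z gave higher Il1a, by 3.76 ± 0.27 (adjusted p = 7.07e-05), Il1b, by 1.78 ± 0.18 (adjusted p = 0.000361), and Il1rn, by 3.36 ± 0.25 (adjusted p = 7.93e-05), in 4 of 4 replicate pairs each. These 3 of 9 genes were called, against 9.83% of all tested genes (5.42% higher, 4.42% lower). Nlrp3 differed by 0.39 ± 0.063 (adjusted p = 0.00273), under 1.5-fold. Casp1 and Casp4 were each lower with T/S/Z than with T/5z by a log2 difference of -0.49 (SE 0.075 and 0.047, adjusted p = 0.00239 and 0.000259), also under 1.5-fold.

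The next question was which part of these changes depended on the RIPK1 kinase. Nec-1s alone called none of the 9 genes in microglia and none of the 10524 tested genes, a share of 0% (limma), while 892 genes had an unadjusted p under 0.05. Among the 9 genes the largest differences from DMSO were -0.18 ± 0.059 for Il1b (adjusted p = 0.526) and -0.17 ± 0.063 for Nlrp3 (adjusted p = 0.562).

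Given with T/S/Z, Nec-1s lowered Il1a, Il1b, the antagonist and the sensor. Il1a was 1.71, 1.49, 1.25 and 0.97 with T/S/Z/N, Il1b was 6.65, 6.72, 5.84 and 5.78, Il1rn was 5.40, 5.40, 4.72 and 4.73, and Nlrp3 was 6.50, 6.44, 6.57 and 6.53. For each of the 4 genes, every library was below every T/S/Z library. For Il1a, Il1b and Il1rn, replicates 1 and 2 lay above replicates 3 and 4, but not for Nlrp3. Because replicate means had been made equal, this split is tied to opposite ones in other treatments, such as that of Il1rn with T/S/Z. The log2 differences were -4.55 ± 0.2 for Il1a (adjusted p = 4.24e-06), -2.19 ± 0.22 for Il1b (adjusted p = 0.000148), -2.96 ± 0.31 for Il1rn (adjusted p = 0.000181) and -1.51 ± 0.049 for Nlrp3 (adjusted p = 1.28e-06). In FPKM, 2.66% of the T/S/Z mean was left for Il1a, 11.9% for Il1rn, 22.5% for Il1b and 34.8% for Nlrp3. These 4 of 9 genes were called lower, against 12.1% of all tested genes called in either direction (5.35% higher, 6.72% lower).

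The other 5 genes differed by less than 1.5-fold between T/S/Z/N and T/S/Z. Casp4 was 5.17, 5.14, 5.02 and 5.12 with T/S/Z/N, a difference of -0.17 ± 0.047 (adjusted p = 0.0142). Gsdmd was 5.47, 5.43, 5.43 and 5.44, a difference of -0.29 ± 0.047 (adjusted p = 0.00147). Casp1 was 5.92, 5.97, 5.68 and 5.73 and differed by 0.25 ± 0.045 (adjusted p = 0.00216), so with Nec-1s it was further from DMSO, not closer. Pycard ranged from 2.93 to 3.05, between its T/S/Z and DMSO values, and differed by 0.46 ± 0.076 (adjusted p = 0.00158). Il18 differed by -0.22 ± 0.085 (adjusted p = 0.056).

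After T/5z, Nec-1s lowered Il1a, Il1b and Nlrp3. Il1a was 0.42, 0.11, 0.46 and 0.29 with T/5z/N, Il1b was 5.60, 5.39, 4.83 and 4.92, and Nlrp3 was 5.80, 5.69, 5.42 and 5.82. Il1a and Il1b were back within the range of the DMSO libraries, while all Nlrp3 values stayed well above DMSO. The differences from T/5z were -1.83 ± 0.22 for Il1a (adjusted p = 0.000293), -1.47 ± 0.038 for Il1b (adjusted p = 4.1e-07) and -1.95 ± 0.059 for Nlrp3 (adjusted p = 5.37e-07). These 3 genes were called lower, against 7.16% of all tested genes called in either direction (2.64% higher, 4.52% lower). Il1rn was 4.36, 4.30, 3.79 and 4.00, and its difference of -0.56 ± 0.073 (adjusted p = 0.000513) was just short of 1.5-fold, and was past it without replicate 1 (-0.59) or replicate 2 (-0.60). Casp4 differed by -0.15 ± 0.041 (adjusted p = 0.0193), Casp1 by 0.07 ± 0.04 (adjusted p = 0.157) and Il18 by -0.08 ± 0.11 (adjusted p = 0.58).

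**Figure D2:**
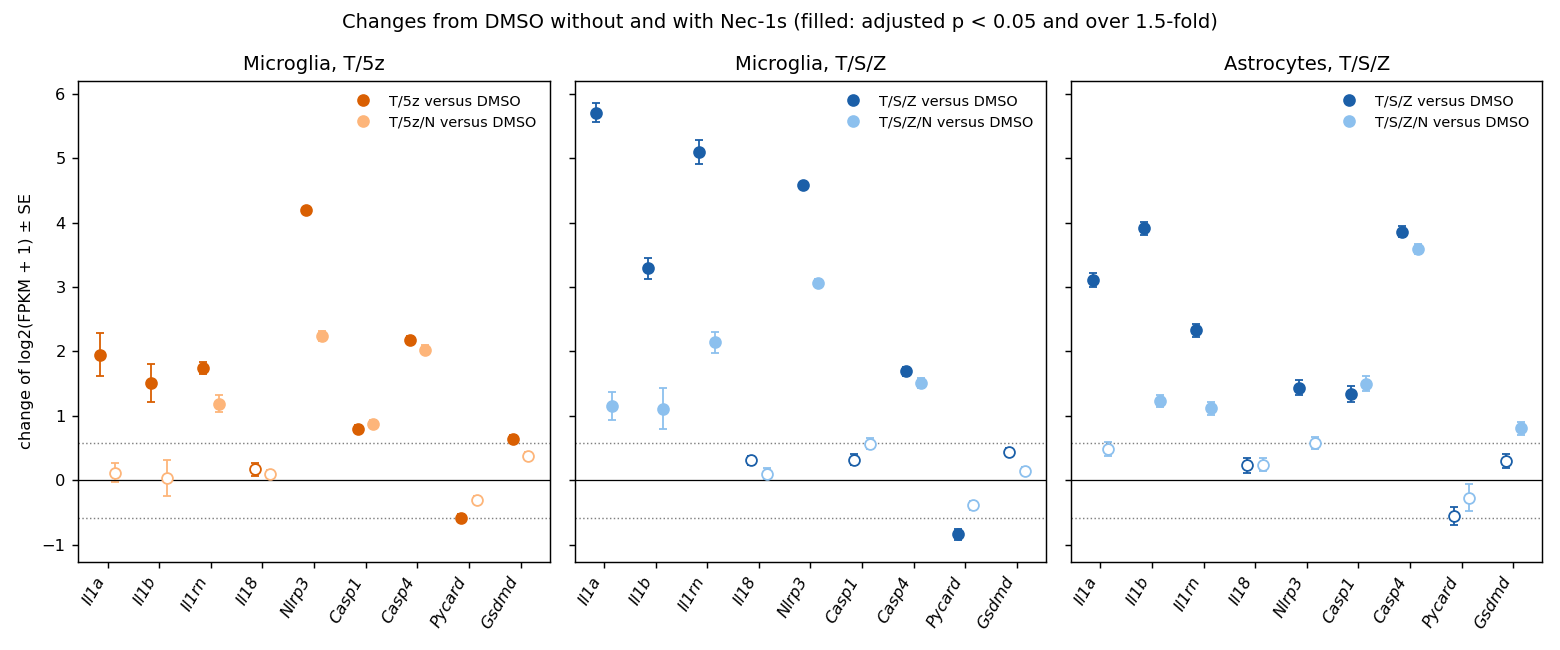
Change of log2(FPKM + 1) from DMSO (vertical axis, mean ± SE from the limma fit) of the 9 genes without and with Nec-1s, in microglia after T/5z and T/S/Z (4 libraries a group) and in astrocytes after T/S/Z (3 a group); filled points were called and dotted lines mark 1.5-fold. The points of Il1a, Il1b, Il1rn and Nlrp3 lie lower with Nec-1s in all 3 panels (for Il1rn after T/5z the difference was not called), whereas both Casp4 points lie close together.

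The levels left under Nec-1s were compared with DMSO. With T/5z/N, Il1rn (1.19 ± 0.13, adjusted p = 0.000194), Nlrp3 (2.24 ± 0.084, adjusted p = 7.57e-07), Casp1 (0.88 ± 0.06, adjusted p = 1.28e-05) and Casp4 (2.03 ± 0.073, adjusted p = 6.5e-07) were called higher, 4 of 9 genes against 12.8% of all tested genes (6.16% higher, 6.69% lower). Il1b differed by 0.04 ± 0.28 (adjusted p = 0.916), and its replicate pairs ranged from -0.95 to 0.94, so a difference of either sign was not detectable. Under T/S/Z/N, 5 genes stayed higher, against 14.1% of all tested genes (6.2% higher, 7.87% lower). They were Il1a (1.15 ± 0.22, adjusted p = 0.0038), Il1b (1.11 ± 0.32, adjusted p = 0.0244), Il1rn (2.14 ± 0.17, adjusted p = 3.97e-05), Nlrp3 (3.07 ± 0.062, adjusted p = 4.01e-07) and Casp4 (1.51 ± 0.072, adjusted p = 4.32e-06). Casp1 differed by 0.57 ± 0.091 (adjusted p = 0.00172), short of 1.5-fold, and by 0.68 without replicate 3. The call of Il1b was lost without replicate 1 (0.81, adjusted p = 0.0691) or replicate 2 (0.82, adjusted p = 0.0834), and with per-gene variance those of Il1a (adjusted p = 0.0888) and Il1b (adjusted p = 0.197) were lost. The Il1b call was also lost with no filter on low values (adjusted p = 0.0576). That of Il1a was lost with 5 in place of 1 added before the log (0.34, under 1.5-fold). As a share of the log2 rise over DMSO, 93.3% of the Casp4 rise was left with T/5z/N and 89.7% with T/S/Z/N, against 53.4% and 67% for Nlrp3 and 2.96% and 33.6% for Il1b. Mean FPKM with Nec-1s, which includes the level at rest, was 90.3% and 88.4% of that without it for Casp4. It was 25.6% and 34.8% for Nlrp3 and 35.6% and 22.5% for Il1b.

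Whether Nec-1s acted differently after the 2 stimuli was tested as a difference of differences. Nec-1s lowered Il1a by a further -2.72 ± 0.33 (adjusted p = 5.24e-05) and Il1rn by a further -2.41 ± 0.37 (adjusted p = 0.000325) after T/S/Z, in 4 of 4 replicates. These 2 of 9 genes were called, against 6.47% of all tested genes (2.7% higher, 3.77% lower). For Il1b the difference was -0.72 ± 0.26 (adjusted p = 0.0558), which missed the threshold, and without replicate 1 it was -0.93 (adjusted p = 0.0247). For Nlrp3 it was 0.44 ± 0.11 (adjusted p = 0.0091) in the other direction and under 1.5-fold. With quantile normalization Nlrp3 was called as well (0.66, adjusted p = 0.0015), which gives 1 gene higher and 2 lower. For Il1a the difference is bounded by the rise itself, since this gene was already back in the DMSO range with T/5z/N. As a share of the log2 rise over DMSO, 5.93% was left for Il1a with T/5z/N and 20.2% with T/S/Z/N, and 68% and 41.9% for Il1rn. As a share of the stimulated FPKM, 6.72% and 2.66% were left for Il1a and 67.2% and 11.9% for Il1rn. The added 1 shrinks the log2 change of Il1a more after T/5z, where its level was lower, which enlarges the difference on this scale.

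**Figure D3:**
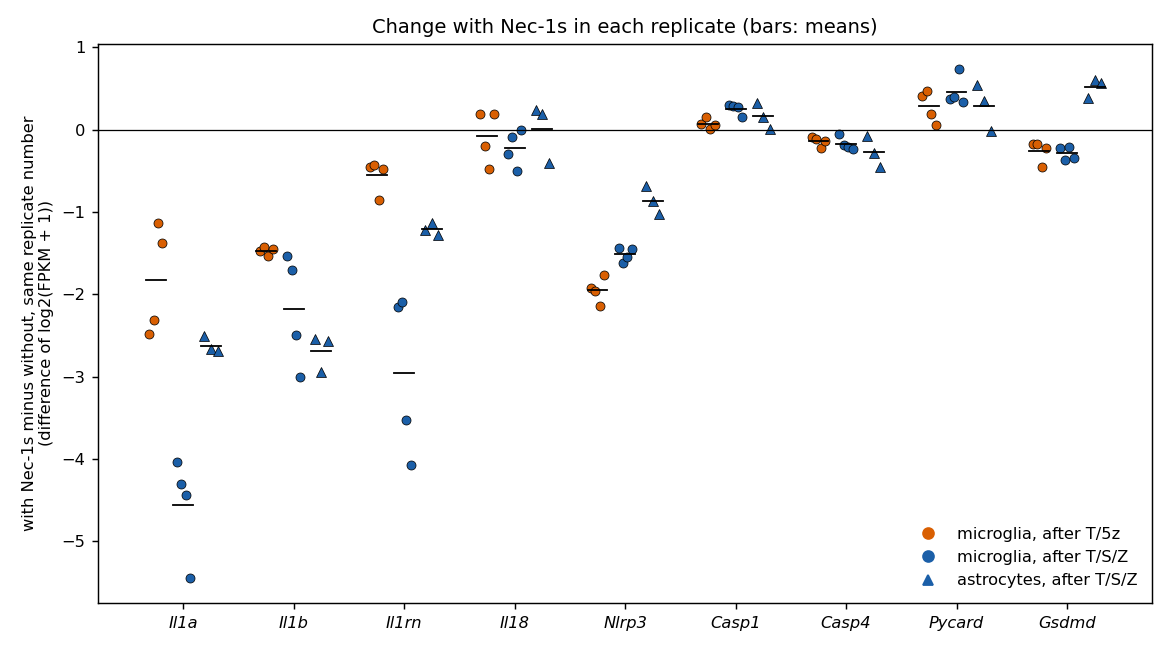
Difference of log2(FPKM + 1) between the libraries with and without Nec-1s of the same replicate number (vertical axis) for the 9 genes, in microglia after T/5z and T/S/Z (circles, 4 replicates) and in astrocytes after T/S/Z (triangles, 3 replicates), with means as bars. Il1a and Il1rn in microglia are lower after T/S/Z in every replicate, whereas Casp1, Casp4 and Il18 lie within 0.50 of 0.

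In astrocytes the same questions were asked for T/S/Z. Il1a and Il1b were near the limit of detection at rest and rose. Il1a was 0.13, 0.03 and 0.24 with DMSO, about 1 to 8 fragments by the depth estimate, and 3.09, 3.34 and 3.30 with T/S/Z. Il1b was 0.29, 0.44 and 0.53 with DMSO and 4.18, 4.47 and 4.34 with T/S/Z. Neither gene overlapped between the groups, and the increases were 3.11 ± 0.11 (adjusted p = 3.14e-06) and 3.91 ± 0.1 (adjusted p = 5.69e-07).

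Il1rn was 1.48, 1.35 and 1.74 with DMSO and 3.89, 3.72 and 3.95 with T/S/Z, an increase of 2.33 ± 0.098 (adjusted p = 6.13e-06). Its ratio to Il1b in FPKM, 4.38 to 8.08 with DMSO, was 0.574 to 0.803 with T/S/Z. At rest the antagonist message exceeded that of Il1b in every astrocyte library, where Il1b had only about 9 to 19 fragments by the depth estimate. With DMSO the mean FPKM in astrocytes was 0.939% of that in microglia for Il1b and 28.6% for Il1rn. The same share of 17 microglial markers had a median of 0.821% and reached 43%, and the part of microglial RNA was not tested. The ratio rests on the exon lengths of the astrocyte annotation, and with those of the microglial annotation, an alternative chosen after seeing the data, it was 6.37 to 11.8 with DMSO and 0.835 to 1.17 with T/S/Z. Which of the messages was more abundant with T/S/Z therefore depends on the annotation, while the ratio with T/S/Z was below that with DMSO under both. Nlrp3 was 0.24, 0.37 and 0.36 with DMSO and 1.59, 1.78 and 1.94 with T/S/Z, an increase of 1.44 ± 0.11 (adjusted p = 9.83e-05) that reached only 2.42 FPKM ± 0.414 (SD, n = 3).

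Casp4 was the most abundant of the 9 genes in stimulated astrocytes. It was 1.59, 1.52 and 1.65 with DMSO and 5.33, 5.44 and 5.58 with T/S/Z, an increase of 3.86 ± 0.089 (adjusted p = 3.5e-07). Casp1 was 2.91, 3.33 and 3.10 with DMSO and 4.36, 4.36 and 4.65 with T/S/Z, an increase of 1.34 ± 0.12 (adjusted p = 0.000179). Il18 was the most abundant of the 9 at rest, at 3.95, 3.72 and 3.96, and was 3.89, 4.02 and 4.41 with T/S/Z, with overlapping groups (0.23 ± 0.11, adjusted p = 0.14). Pycard was low throughout, at 0.65, 1.08 and 1.63 with DMSO and 0.28, 0.66 and 0.74 with T/S/Z, and its difference of -0.56 ± 0.14 (adjusted p = 0.0167) was under 1.5-fold, although past it without replicate 2 (-0.63, adjusted p = 0.0306). Gsdmd was 1.36, 1.12 and 1.35 with DMSO and 1.63, 1.35 and 1.75 with T/S/Z (0.30 ± 0.11, adjusted p = 0.056). Thus 6 of the 9 genes were called higher and none lower, against 15.4% of all tested genes called in either direction (6.39% higher, 8.99% lower), with a median log2 change of 1.44 beside -0.11 over all tested genes. Il1a, Il1b and Nlrp3 could be tested only because of TNF-treated libraries, so this count is descriptive. The calls of Nlrp3 (adjusted p = 0.0566) and Casp1 (adjusted p = 0.0865) were lost with per-gene variance.

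**Figure D4:**
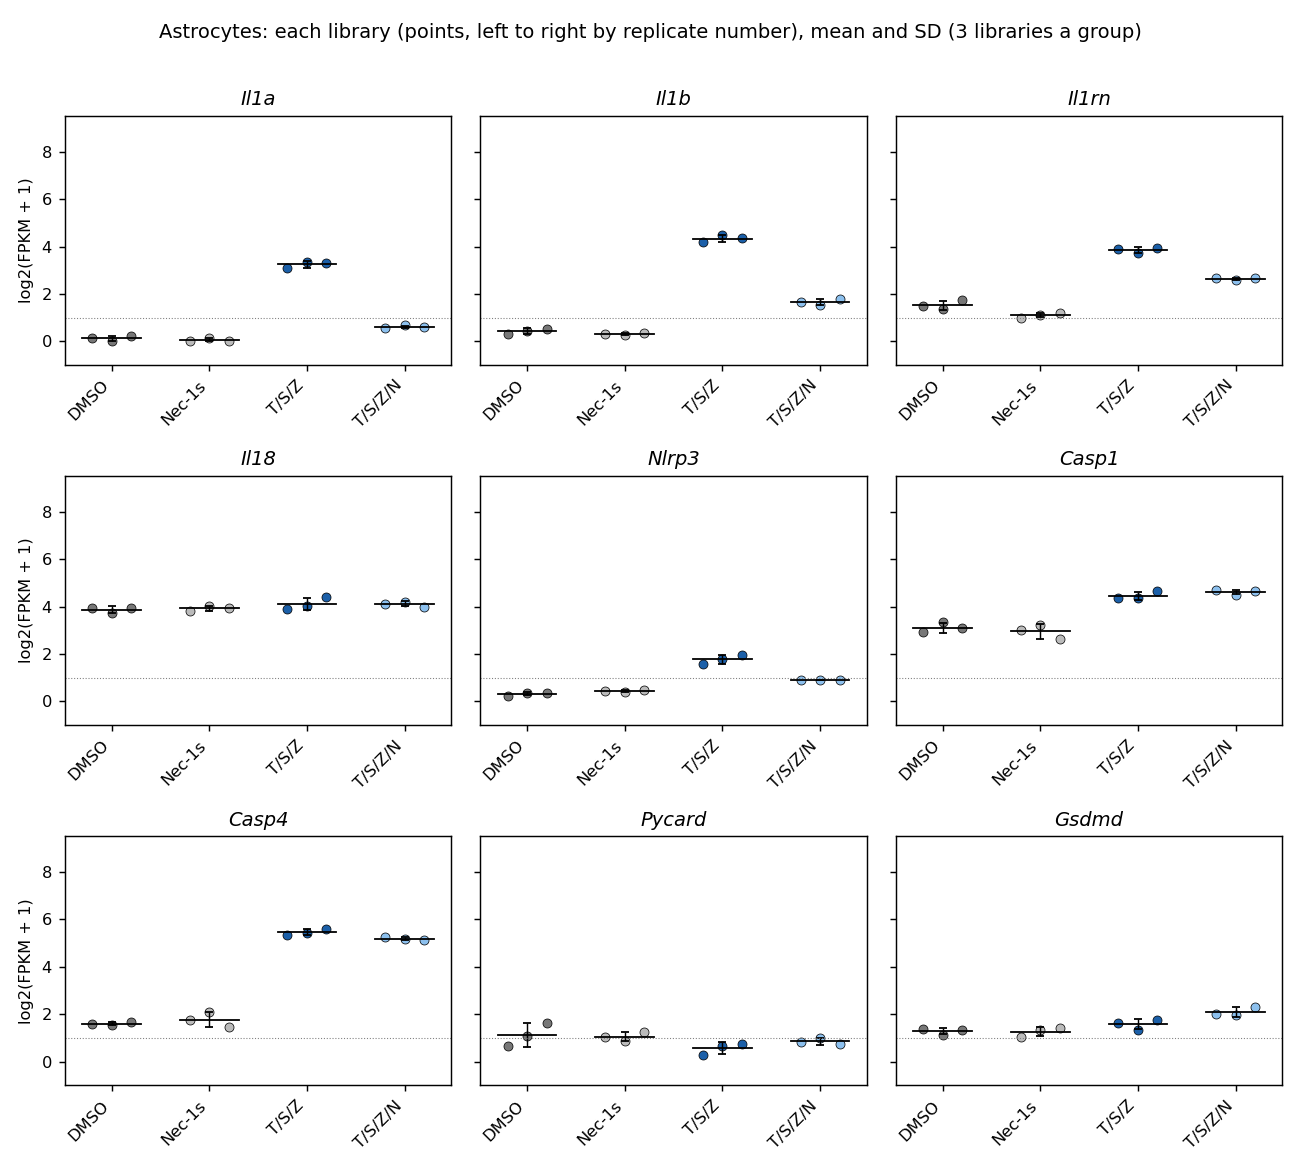
Log2(FPKM + 1) of the 9 genes in each of 12 astrocyte libraries (vertical axis) by treatment (horizontal axis), with the mean (bar) and SD (whiskers) of 3 libraries and a dotted line at the filter value of 1. Casp4 moves from 1.59 with DMSO to 5.45 with T/S/Z and is 5.18 with T/S/Z/N, whereas Il1a and Il1b fall back.

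Nec-1s alone called none of the 9 genes in astrocytes (limma; 0.0144% of all tested genes called, 790 genes with an unadjusted p under 0.05). The largest difference from DMSO was that of Il1rn, at 1.00, 1.13 and 1.20, which was -0.41 ± 0.11 (adjusted p = 0.85). With T/S/Z/N, Il1a was 0.58, 0.67 and 0.61, Il1b was 1.64, 1.52 and 1.77, Il1rn was 2.67, 2.59 and 2.67, and Nlrp3 was 0.90, 0.91 and 0.91. All were below every T/S/Z library and above every DMSO library. The differences from T/S/Z were -2.63 ± 0.099 for Il1a (adjusted p = 4e-05), -2.69 ± 0.11 for Il1b (adjusted p = 6.58e-05), -1.21 ± 0.092 for Il1rn (adjusted p = 0.000727) and -0.86 ± 0.11 for Nlrp3 (adjusted p = 0.00583). These 4 of 9 genes were called lower, against 3.1% of all tested genes called in either direction (1.51% higher, 1.59% lower). Il1a, Il1b and Nlrp3 had passed the filter on low values only through TNF-treated libraries, so this count is descriptive as well. With the variance of each gene estimated alone, the differences were the same but none of the 4 passed (adjusted p = 0.191 to 0.233), and 3 in place of 429 genes were called in all.

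Casp1 and Casp4 stayed up. With T/S/Z/N, Casp1 was 4.68, 4.51 and 4.66 and differed from T/S/Z by 0.16 ± 0.094 (adjusted p = 0.297). Casp4 was 5.25, 5.15 and 5.13 and differed by -0.28 ± 0.098 (adjusted p = 0.117), which leaves 92.9% of its log2 rise. Gsdmd was higher with Nec-1s than without it, at 2.01, 1.95 and 2.31, a difference of 0.51 ± 0.1 (adjusted p = 0.03) under 1.5-fold. Compared with DMSO, 5 of 9 genes were called higher with T/S/Z/N, against 9.08% of all tested genes (4.36% higher, 4.72% lower). They were Il1b (1.23 ± 0.1, adjusted p = 0.000654), Il1rn (1.12 ± 0.1, adjusted p = 0.000942), Casp4 (3.59 ± 0.082, adjusted p = 5.21e-06), Gsdmd (0.81 ± 0.1, adjusted p = 0.00305) and Casp1 (1.18 to 1.76 in the 3 replicates, adjusted p = 0.000556). With per-gene variance the adjusted p of Il1b, Il1rn, Casp1 and Gsdmd were 0.0847, 0.0996, 0.114 and 0.111, and of the 5 only Casp4 passed. Nlrp3 lay at the 1.5-fold limit without passing it (0.58 ± 0.097, adjusted p = 0.00821), and was past it without replicate 2 or 3 (0.60 each).

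Levels in the 2 cell types came from separately normalized tables, for which the labels name different providers and the methods of the study a single one, so they were set side by side with no test. The astrocytes were selected from the fraction left after microglia were taken out, so the microglial markers were read beside the 9 genes. The mean FPKM in astrocytes with T/S/Z was 14.1% of that in microglia for Il1a, 5.5% for Il1b, 4.83% for Il1rn, 0.933% for Nlrp3, 10% for Pycard, 3.84% for Gsdmd, 45.1% for Casp1, 113% for Casp4 and 178% for Il18. For the 17 microglial markers the same share ran from 0.177% for Trem2 to 18.7% for P2ry12, with a median of 0.471%. None of the 17 was at 0 in astrocytes, P2ry12 itself was low in microglia (2.57 FPKM), and the summed markers in astrocytes were 163 to 176 FPKM with DMSO, 107 to 116 with T/S/Z and 147 to 152 with T/S/Z/N. Il1a, Il1b, Il1rn and Nlrp3 rose with T/S/Z in microglia as well, so the lower marker sum does not bound the microglial part of their astrocyte values. The shares of Il1a, Il1b, Il1rn, Nlrp3, Pycard and Gsdmd lay below that of P2ry12, the highest marker, and those of Casp1, Casp4 and Il18 lay above it. Other lists also moved in astrocytes: the 3 fibroblast markers summed to 274 to 302 FPKM with DMSO, 65.4 to 72.6 with T/S/Z and 252 to 261 with T/S/Z/N, the endothelial gene Cdh5 to 12 to 12.6, 2.62 to 3.27 and 8.66 to 9.86, and the 6 oligodendrocyte-lineage markers to 97.5 to 115, 56.8 to 82.4 and 65.5 to 69.6. The part of these cells in the results was not tested. How much of the astrocyte values came from microglial RNA was not tested. Exon lengths in the 2 annotations differed for Il1b, Il1rn, Casp4 and Gsdmd and for several markers. Scaled by those lengths, the shares of these 4 genes were 7.73%, 9.89%, 291% and 5.09%, and the 17 markers ran from 0.196% for C1qa to 19.4% for P2ry12 with a median of 0.766%. The upper end of the range rests on P2ry12 alone in both cases. The next marker, Tmem119, was at 4.74% with scaling, below Il1a, Il1b, Il1rn, Pycard and Gsdmd, and at 4.59% without it, below the same genes except Gsdmd, whereas Nlrp3 lay among the other markers.

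**Figure D5:**
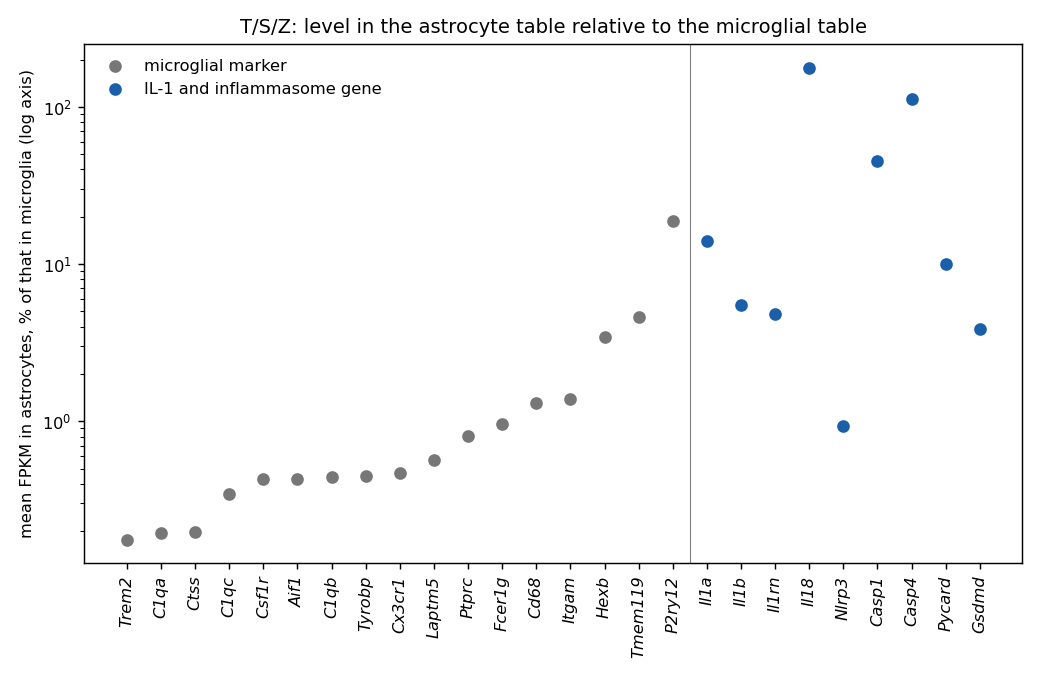
Mean FPKM with T/S/Z in astrocytes as a percentage of that in microglia (vertical log axis; 3 and 4 libraries) for 17 microglial markers, sorted, and the 9 genes (horizontal axis). Before any scaling by exon length, the markers have a median of 0.471%, and Casp4 and Il18 exceed 100%.

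The other genes of the pathway were described from lists of its parts, against the 24.4% (T/5z) and 29.6% (T/S/Z) of all tested genes called in microglia. Of 12 IL-1 receptor signaling genes tested in microglia, 6 were called higher and 1 lower with T/5z, and 4 higher and 2 lower with T/S/Z. In the T/5z comparison the kinase genes Irak2 (1.41 ± 0.052) and Irak3 (1.27 ± 0.077) and the adaptor gene Myd88 (1.15 ± 0.042) led the rises, and Tab1, which encodes a TAK1 partner, fell (-0.68 ± 0.072). In the T/S/Z comparison the rises were led by Irak2 (1.40 ± 0.052), Tollip (1.10 ± 0.064) and Irak3 (1.09 ± 0.095), and Tab1 (-1.06 ± 0.084) and Irak4 (-0.64 ± 0.076) fell. Irak3 and Tollip encode inhibitors of this pathway. Nec-1s lowered Irak2 after both stimuli, by a log2 difference of -0.91 ± 0.047 after T/5z (adjusted p = 4.54e-06) and -0.79 ± 0.042 after T/S/Z (adjusted p = 8.88e-06). After T/S/Z it also lowered Tollip (-0.96 ± 0.072, adjusted p = 3.95e-05) and raised Tab1 (0.59 ± 0.081, adjusted p = 0.000594).

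Among the cofactors and pyroptosis effectors, 11 of 14 were tested in microglia. Of these, 3 were called higher and 3 lower with T/5z, and 2 higher and 4 lower with T/S/Z. Gbp5, a guanylate-binding protein that promotes inflammasome assembly, rose by 5.31 ± 0.13 with T/5z and by 1.88 ± 0.11 with T/S/Z, and Gbp2 rose by 1.64 ± 0.1 with T/5z. Ninj1, whose product ruptures dying cells, rose by 1.39 ± 0.043 and 1.22 ± 0.065. P2rx7, the ATP receptor upstream of NLRP3, was lower by -1.81 ± 0.12 and -1.87 ± 0.07, and Pstpip1 by -1.82 ± 0.1 and -1.32 ± 0.086. Gsdme was lower with T/5z (-0.79 ± 0.13) and Txnip with T/S/Z (-1.98 ± 0.057). All these calls had adjusted p of 0.00172 or below. The fourth fall with T/S/Z was that of Nek7, whose product binds NLRP3 (-0.68 ± 0.072, adjusted p = 9.41e-05). With Nec-1s, Gbp5 was lower after T/5z (-1.59 ± 0.047, adjusted p = 5.04e-07), Txnip was higher after T/S/Z (1.37 ± 0.062, adjusted p = 4.63e-06), and P2rx7 was higher after both (0.86 ± 0.074 and 0.59 ± 0.054). Pstpip1 was also higher after T/5z with Nec-1s (0.81 ± 0.08) and Gsdme after T/S/Z (0.62 ± 0.094). Of 6 other inflammasome sensors tested, 1 was called with T/5z and 2 were with T/S/Z, shares near those of all genes, and all were lower: Naip5, which encodes a flagellin sensor, with both stimuli (-0.74 each), and Naip6 with T/S/Z (-0.61 ± 0.073). Il18bp was not called with either stimulus, and of the receptors only Il1rap was tested, with a rise of 0.61 ± 0.11 with T/S/Z (adjusted p = 0.00133).

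In astrocytes, where 15.4% of all tested genes were called with T/S/Z and 3.1% between T/S/Z/N and T/S/Z, more receptor genes were tested. Of 6 IL-1 family receptor genes tested, 3 were called higher with T/S/Z, namely Il1rl1, which encodes the IL-33 receptor (1.61 ± 0.11), Il1rap (1.53 ± 0.072) and Il1r1 (0.96 ± 0.083), and Il1rl2 was lower (-0.62 ± 0.11, adjusted p = 0.00521). Nec-1s lowered Il1rl1 (-0.89 ± 0.095, adjusted p = 0.00312) and Il1r1 (-0.73 ± 0.088, adjusted p = 0.00512) and raised Il1rl2 (0.70 ± 0.096, adjusted p = 0.00914). Il18bp, the binding protein of IL-18, rose by 1.28 ± 0.1, while Il33 was at a mean of 4.75 ± 0.094 (SD, n = 3) with DMSO and 5.14 ± 0.25 with T/S/Z and was not called. Of 12 signaling genes 3 rose, which were Myd88 (1.82 ± 0.087), Irak3 (0.70 ± 0.11) and Irak2 (0.68 ± 0.13). Of 13 cofactors, Gbp5 (6.22 ± 0.11) and Gbp2 (4.27 ± 0.072) rose and Txnip (-0.86 ± 0.086) and Pstpip1 (-0.78 ± 0.091) fell. Gbp5 was at 7.10 ± 0.053 with T/S/Z/N beside 7.26 ± 0.12 with T/S/Z. Neither of the 2 other sensors tested was called.

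Across the 24 microglial libraries, the tested genes whose log2 values were most like those of Il1a were Gm6377, Fbxo30 and Flrt3 (Pearson r 0.985, 0.978 and 0.977). For Il1b they were Tmem185b, Il1a and Chic2 (0.967, 0.964 and 0.961), for Il1rn they were Mdm2, Lilr4b and Eif1 (0.981, 0.980 and 0.980), and for Nlrp3 they were Tnip1, Gch1 and Cflar (0.993, 0.993 and 0.992). Over the 12 astrocyte libraries they were Ccl4, Ccl3 and Csf3 for Il1a (0.992, 0.989 and 0.988), Cxcl3, Tnf and Gap43 for Il1b (0.992, 0.991 and 0.990), Tnfrsf1b, Gdnf and Adamts5 for Il1rn (0.993, 0.990 and 0.989), and Clec4e, Il1b and Il19 for Nlrp3 (0.989, 0.987 and 0.987). These libraries share treatments and scaling, so high values are common, and no test was made.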

How the data were processed

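RNA was sequenced from 24 microglial and 12 astrocyte libraries of mouse glia. The authors deposited log2(FPKM + 1) per gene, made in OmicSoft Array Studio. The aligner and gene model are not given in the sources used here. The scaling left the 75th percentile equal within each table (4.11 to 4.16 in microglia, 4.73 to 4.74 in astrocytes), and in microglia the gene means of all replicates had also been made equal by a step that is not described, which gave some values below 0. The deposited annotation added coordinates, exon length in bases and a mark for confounded genes (7834 of 15385 and 8207 of 14551).

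Each comparison used its own libraries in limma 3.58.1 (R 4.3.3; trend, 2-sided, replicate number as a block after the paired test of the study) on the deposited log2 values, with Benjamini-Hochberg adjustment over all tested genes. A call needed an adjusted p under 0.05 and a fold over 1.5. In astrocytes the deviations of same-numbered libraries correlated at -0.14 to 0.41 and those of other numbers at -0.44 to 0.19. In microglia the equalised means make this check void. Fragment equivalents came from the spacing of low values: 77.3 to 83.7% of those in astrocytes and 65.9 to 67.6% in microglial replicate 4 lay within 0.1 of a whole number (20% by chance), and the spacing was lost in the other replicates. The fit was tested on simulated data.

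The 9 genes, the pathway and marker lists and the tests were chosen with earlier results of these data known. Pathway genes were named as the 3 largest rises and falls among calls with a stimulus, and Nek7, Il33 and genes traced to Nec-1s were added after their values were seen. Alternatives were no filter, a mean log2 of at least 3, 5 in place of 1 added before the log, centring, quantile normalization, a fold of 2, no block, per-gene variance and leaving out each replicate.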

Additional observations from a re-analysis of the deposited data

Results flagged for a closer look

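Nec-1s lowered Il1a and Il1rn more after T/S/Z than after T/5z in microglia, with differences between the effects of -2.72 and -2.41 on the log2 scale that passed the test of the difference itself. The rise left to lower was smaller after T/5z. Il1a was already back in the DMSO range with T/5z/N, so its difference was bounded by the size of that rise. Of the log2 rise of Il1a 5.93% was left after T/5z against 20.2% after T/S/Z, while for Il1rn it was 68% against 41.9%. Between cell types, every replicate moved one way in microglia and the other way in astrocytes in 3 cases, and the differences were not tested. Nec-1s alone against DMSO gave log2 changes of 0.12 in microglia and -0.41 in astrocytes for Il1rn, and of -0.17 and 0.11 for Nlrp3. T/S/Z/N against T/S/Z gave -0.29 and 0.51 for Gsdmd. None of these changes was called within its own cell type.

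Of 54 microglial groups of 4 libraries, 4 held a library whose gap to the nearest made up most of the range of its group. The Dixon ratio of gap to range was 0.852 to 0.885. Chance alone flags about 1 in 20 groups of independent values, and the equal replicate means make these values dependent. The flagged libraries were Il1a with T/S/Z in replicate 4 (6.41, the nearest at 5.79), Il1rn with Nec-1s in replicate 3 (3.31, the nearest at 2.97), Il18 with DMSO in replicate 2 (2.88, the nearest at 3.08) and Gsdmd with T/S/Z/N in replicate 1 (5.47, the nearest at 5.44). The Gsdmd library was close to the others, in a group with an SD of 0.02.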

How the results depend on the processing

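Of 1452 values of single genes under the alternatives, 1401 kept their side of the threshold, 37 lost the call and 14 gained one. No value called in either setting turned direction, and direction was not compared for values called in neither. The number of the 9 genes called moved by over 1.5 times in few settings. With a fold of 2 it went from 8 to 5 for T/5z against DMSO. With per-gene variance it went from 5 to 3 for T/S/Z/N against DMSO in microglia, and in astrocytes from 4 to 0 for T/S/Z/N against T/S/Z and from 5 to 1 for T/S/Z/N against DMSO. With a mean log2 of at least 3, which only 3 of the genes pass in astrocytes, the astrocyte counts were 2, 0 and 2 for T/S/Z against DMSO, T/S/Z/N against T/S/Z and T/S/Z/N against DMSO, and with 5 added the last was also 2. The difference of the Nec-1s effects on Il1b passed with 5 added (adjusted p = 0.0399), a mean of at least 3 (adjusted p = 0.043) and centring (adjusted p = 0.0478). The cause of these changes was not tested, apart from the genes removed by the filter.

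Without the replicate block no call of the 9 genes changed, and the counts with T/S/Z were 6 in microglia and 6 in astrocytes. The study paired its samples, and whether a number marks a shared litter could not be checked in microglia. Totals over all genes fell with 5 added, a mean of at least 3 or a fold of 2, for T/S/Z in microglia from 3118 to 1633, 1705 and 1202, for T/5z from 2563 to 1484, 1463 and 1077, and for T/S/Z in astrocytes from 2130 to 985, 1094 and 766. In astrocytes per-gene variance left 281 genes for T/S/Z, and for T/S/Z/N against T/S/Z 3 of 429, with 274 without replicate 2 and 761 without replicate 3. Low levels limit Il1a, Il1b and Nlrp3 in resting astrocytes.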
